A study of Mus musculus with 16 samples.

Results

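Lysophosphatidic acid (LPA) is a small signalling lipid, and the genes described here are those that sense it and set its level outside the cell: the 6 LPA receptors Lpar1, Lpar2, Lpar3, Lpar4, Lpar5 and Lpar6, autotaxin (Enpp2), and the 3 lipid phosphate phosphatases Plpp1, Plpp2 and Plpp3. They were chosen by family, with earlier results of these data known. They are 10 of the 54532 genes in the count table, and all 10 were found in it. RNA was sequenced from 16 cultures of mouse jejunal enteroids, which are epithelial cultures grown in gel from intestinal crypts, in 4 groups of 4. The control group carried no label beyond a control genotype without treatment. The donors of MYO5BΔIEC enteroids had the genotype Vil1-CreERT2;Myo5b flox/flox, in which villin-driven, tamoxifen-inducible Cre deletes the motor protein gene Myo5b in intestinal epithelium. MYO5B(G519R) enteroids came from mice in which 1 allele is floxed in the same way and the other carries the G519R point mutation found in microvillus inclusion disease. The fourth group was MYO5BΔIEC enteroids given Compound-1, described by the study as an agonist with preference for LPAR5, at 100 nM for 2 days, and the MYO5BΔIEC group without it received vehicle. 4-hydroxytamoxifen, the drug that switches Cre on, is named in the labels for the MYO5B(G519R) and MYO5BΔIEC cultures, and the study's text describes the controls both as littermates and as floxed cultures given vehicle, so effects of the drug and of Myo5b loss cannot be told apart in a comparison with control. All cultures came from adult mice and were in differentiation medium without Wnt ligands and epidermal growth factor. The study states 4 mice per group, and the labels do not tie treated to vehicle cultures of the same mouse. Donor sex, read from Xist and Y-linked genes, was 2 female and 2 male in the control and vehicle MYO5BΔIEC groups. It was 1 female and 3 male in the MYO5B(G519R) and treated groups, so treated and vehicle cultures cannot be matched mouse for mouse.

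As background, autotaxin is a secreted enzyme that cuts choline from lysophosphatidylcholine and so makes most extracellular LPA. Receptors 1 to 3 belong to the Edg family, which also holds the sphingosine 1-phosphate receptors, while receptors 4 to 6 are closer to the P2Y purinergic receptors. Between them they couple to Gi, Gq and G12/13 proteins, and so, among other effectors, to adenylyl cyclase inhibition and phospholipase C-beta. The PLPP enzymes sit in the plasma membrane with the active site facing outward and remove the phosphate from LPA, which ends its action on receptors. In gut epithelium LPAR5 is known for stimulating the sodium-proton exchanger NHE3 and LPAR2 for binding the scaffold NHERF2 close to the chloride channel CFTR.

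Promoter windows are shown for the 4 genes whose levels stood apart from control most regularly or that the agonist addresses, Lpar2, Lpar5, Lpar6 and Plpp3, so that the start of each transcript can be seen beside its values. Each window runs from 250 bases before to 50 bases after the annotated start, 5′ to 3′ on the gene's own strand, from RefSeq on GRCm38.p6. Windows were found for 8 of the 10 genes, and none for Enpp2 and Plpp1. Capitals mark matches, on either strand, to the GC box GGGCGG, the CCAAT box, the TATA box TATAAA, the AP-1 site TGANTCA, the TEAD site GGAATG, the E-box CACGTG and the CDX2 site TTTATG. The single Lpar2 window (chr8:69822315-69822614, plus strand) and the 2 Lpar5 windows (chr6:125067670-125067969 and chr6:125071085-125071384, plus strand) read as follows.
Lpar2: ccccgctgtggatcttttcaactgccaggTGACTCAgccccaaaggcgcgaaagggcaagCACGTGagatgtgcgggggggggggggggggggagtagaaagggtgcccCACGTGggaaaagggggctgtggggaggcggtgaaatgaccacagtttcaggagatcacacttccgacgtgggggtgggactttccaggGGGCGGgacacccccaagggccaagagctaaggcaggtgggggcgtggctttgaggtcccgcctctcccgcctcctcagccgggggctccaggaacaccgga
Lpar5, upstream start: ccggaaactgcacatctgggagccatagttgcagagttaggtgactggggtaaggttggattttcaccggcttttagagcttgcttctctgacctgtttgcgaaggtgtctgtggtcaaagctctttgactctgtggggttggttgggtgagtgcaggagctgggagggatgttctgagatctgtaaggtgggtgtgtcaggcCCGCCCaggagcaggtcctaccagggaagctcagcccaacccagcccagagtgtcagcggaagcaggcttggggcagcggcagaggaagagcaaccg
Lpar5, downstream start: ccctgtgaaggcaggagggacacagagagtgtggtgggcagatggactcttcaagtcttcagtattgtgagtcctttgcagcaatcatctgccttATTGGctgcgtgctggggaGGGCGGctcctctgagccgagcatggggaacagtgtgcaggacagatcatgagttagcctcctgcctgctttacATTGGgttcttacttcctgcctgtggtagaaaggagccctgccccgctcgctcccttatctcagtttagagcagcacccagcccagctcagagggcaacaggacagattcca
The windows of Lpar6 (chr14:73237641-73237940, plus strand) and Plpp3 (chr4:105157097-105157396, plus strand) read as follows.
Lpar6: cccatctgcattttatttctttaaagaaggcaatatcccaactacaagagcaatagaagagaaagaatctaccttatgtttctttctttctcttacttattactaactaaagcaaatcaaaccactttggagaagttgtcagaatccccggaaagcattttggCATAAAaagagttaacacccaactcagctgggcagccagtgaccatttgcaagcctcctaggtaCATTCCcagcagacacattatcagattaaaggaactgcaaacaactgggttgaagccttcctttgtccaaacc
Plpp3: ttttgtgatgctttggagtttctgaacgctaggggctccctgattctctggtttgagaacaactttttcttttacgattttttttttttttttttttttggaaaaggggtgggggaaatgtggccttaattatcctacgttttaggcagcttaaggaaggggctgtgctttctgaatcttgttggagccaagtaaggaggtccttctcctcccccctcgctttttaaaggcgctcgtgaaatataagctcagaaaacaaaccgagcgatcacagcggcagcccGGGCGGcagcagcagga
The Lpar2 window held 1 AP-1 site, 2 E-boxes and 1 GC box and was 66.0% G and C. Both Lpar5 windows held 1 GC box, and the downstream one also held 2 CCAAT boxes. Lpar6, the receptor gene that was lower than control, had the window with the lowest G and C content of the 4 genes, 40%, with 1 TEAD and 1 CDX2 match and no GC box. Among all 32851 windows of this length, 35.7% held a GC box, 37.4% a CCAAT box, 13.6% a TATA box, 7.81% an AP-1 site, 14.7% a TEAD site, 7.15% an E-box and 11.9% a CDX2 match, and the median G and C content was 52.7%. A match of letters is a description of the window only.

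The libraries held 27804968 to 40101729 counted reads, so that 3 counts, the limit that a count of 0 allows, correspond to 0.0736 to 0.111 CPM (counts scaled to the normalised library size). These limits, like the values of single cultures, cover counting error only. Whole-gene counts of Myo5b ran from 160 to 230 CPM in control and 136 to 173 CPM in MYO5B(G519R) cultures. They ran from 101 to 169 CPM in vehicle and 87.2 to 149 CPM in treated MYO5BΔIEC cultures. The vehicle MYO5BΔIEC and the MYO5B(G519R) ranges each overlapped control (edgeR adjusted p = 0.0503 and 0.109). In treated MYO5BΔIEC cultures Myo5b was called lower than control (log2 fold change -0.77, SE 0.19, edgeR adjusted p = 0.0146). These counts pool deleted and retained exons and a point mutation does not remove reads, so they check the labels only in part. Control culture 1 stood apart: its median correlation with the other controls was 0.971, against 0.993 to 0.994 for the other 3, and it had the fewest detected genes of the 16 cultures. Reads from mitochondrially encoded genes were 6.41% of the counts in that culture and 9.07% to 10.4% in the other controls, against 3.79% to 6.63% in the 12 cultures of the other groups. Tests of the receptor and phosphatase genes against control are therefore also given without control culture 1 where that changes the call. Results for gene lists, cell type markers, shares, ratios and correlations were not repeated without it. Marker lists of non-epithelial cells had low sums. The 8 fibroblast markers summed to 0.593 to 2.02 CPM, with Col3a1, Dcn and Lum at 0 counts in control and vehicle MYO5BΔIEC cultures. Sums were 3.86 to 10.8 CPM for 5 endothelial and 4.14 to 11.9 CPM for 7 immune markers. By contrast, 8 epithelial markers summed to 5590 to 6708 CPM in control and 7263 to 12750 CPM over the other 3 groups. Not every non-epithelial marker was near 0: the endothelial marker Lyve1 averaged 8.43 CPM in control and 4.06 CPM in vehicle MYO5BΔIEC. The immune marker Cd68 averaged 2.95 and 6.28 CPM there. Against control, edgeR called Lyve1 lower and Cd68 higher in MYO5BΔIEC, and Lyve1 lower and Col1a1 higher in MYO5B(G519R). In treated cultures it called Lyve1 lower and Tie1 higher.

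Levels of different genes were compared only in FPKM, the deposited values per gene length. Plpp2 was the most abundant of the 10 in every group, with 102 FPKM on average over the 16 cultures, followed by Plpp1 (18.9 FPKM) and Lpar5 (14.5 FPKM). Lpar1 (5.56 FPKM), Lpar6 (3.13 FPKM), Lpar2 (2.65 FPKM) and Plpp3 (1.99 FPKM) were detected in all 16 cultures at lower levels. Lpar3 averaged 0.178 FPKM. In control enteroids the order was Plpp2, Plpp1, Lpar5, Lpar1, Lpar6, Lpar2, Plpp3 and Lpar3, and no neighbours from Plpp2 down to Lpar3 overlapped in their range over the 4 cultures. In both MYO5B models and in treated cultures, Lpar5 reached the range of Plpp1, and Lpar2 and Lpar6 overlapped, so that the middle of the order was no longer resolved.

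**Figure D1:**
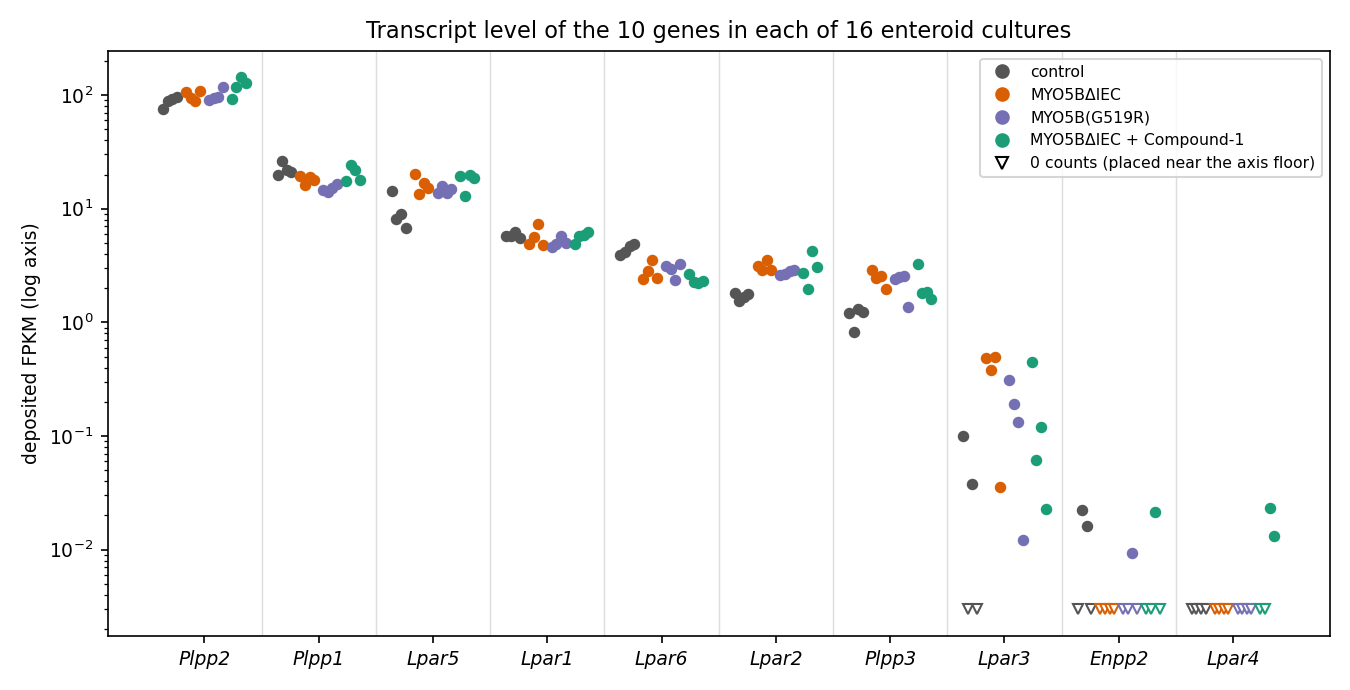
Deposited FPKM of each gene (log axis) in each of the 16 cultures, coloured by group, with open triangles for cultures with 0 counts. Plpp2 lies highest in every culture (mean 102 FPKM), Lpar5 is the highest receptor, and Enpp2 and Lpar4 have 0 counts in most cultures.

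The ligand-making enzyme was close to undetected. Enpp2 (ENSMUSG00000022425, chr15:54838901-54952892, minus strand) gave 14 counts in all, 4 and 3 in control cultures 2 and 3, 2 in MYO5B(G519R) culture 3 and 5 in treated culture 3. The other 12 cultures had 0 counts. Both the group with the most counts and the groups with none were at or near the 3-count limit, so no fold change was computed. Lpar4 (ENSMUSG00000049929, chrX:106920625-106933900, plus strand) gave 6 counts, 4 in treated culture 3 and 2 in treated culture 4. Neither gene entered the tests, so 8 of the 10 were tested in each comparison.

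Lpar5 (ENSMUSG00000067714, chr6:125067920-125082472, plus strand) encodes a P2Y-like receptor in a single coding exon and was the main receptor transcript in these cultures. It stood at 21.8, 12.6, 14.0 and 10.6 CPM in control cultures 1 to 4, and at 30.97, 20.05, 25.9 and 23.4 CPM in MYO5BΔIEC cultures 1 to 4. In MYO5B(G519R) cultures it was 20.8, 24.1, 20.8 and 22.8 CPM, and in treated MYO5BΔIEC cultures 30.2, 20.2, 29.9 and 28.5 CPM. Control culture 1 lay within the ranges of the other groups, whereas the other 3 controls lay below all 12 cultures of those groups. The mean rose from 14.7 ± 4.94 CPM (SD, n = 4) in control to 25.1 ± 4.61 CPM in MYO5BΔIEC, which is 0.77 on the log2 scale (SE 0.23, adjusted p = 0.0308 by edgeR's quasi-likelihood test). The MYO5B(G519R) mean of 22.1 ± 1.59 CPM gave a log2 fold change of 0.58 against control (SE 0.21), which missed the threshold (edgeR adjusted p = 0.0634). Without control culture 1 the 2 log2 fold changes became 1.02 and 0.87 (edgeR adjusted p = 0.000967 and 0.000391). With any 1 of the other 3 controls left out, the MYO5BΔIEC call was lost (edgeR adjusted p up to 0.0884), and it was also lost without MYO5BΔIEC culture 1 or 3.

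Lpar2 (ENSMUSG00000031861, chr8:69822429-69831102, plus strand), the Edg-family receptor that binds NHERF2, was higher in both models. It was at 10.7, 9.37, 10.03 and 10.8 CPM in the 4 controls. In MYO5BΔIEC it was at 18.6, 16.6, 20.6 and 17.2 CPM and in MYO5B(G519R) at 15.2, 15.4, 16.6 and 17.2 CPM. All 8 cultures of the models lay above all 4 controls. Such separation from control, in either direction, was seen for 26.9% of all genes tested in MYO5BΔIEC and 27.4% in MYO5B(G519R). Against control, Lpar2 differed by 0.84 on the log2 scale in MYO5BΔIEC enteroids (SE 0.14, edgeR adjusted p = 0.00313) and by 0.66 in MYO5B(G519R) enteroids (SE 0.12, adjusted p = 0.00521). Both calls were kept with each culture left out in turn. Treated MYO5BΔIEC cultures were at 16.5, 11.8, 24.9 and 18.3 CPM, all above the controls with the widest spread of the 4 groups (17.9 ± 5.43 CPM, SD, n = 4).

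Lpar6 (ENSMUSG00000033446, chr14:73237895-73243294, plus strand), a P2Y-like receptor coupled to G12/13, went the other way. Control cultures held 21.4, 23.1, 26.1 and 27.3 CPM. MYO5BΔIEC cultures held 13.1, 15.0, 19.3 and 13.6 CPM and MYO5B(G519R) cultures 16.8, 15.9, 12.7 and 18.0 CPM. All 8 lay below the lowest control. Log2 fold changes of -0.68 for MYO5BΔIEC (SE 0.17, edgeR adjusted p = 0.0133) and -0.63 for MYO5B(G519R) (SE 0.14, adjusted p = 0.0118) were called, and both calls were kept with each culture left out in turn. Treated cultures held 14.9, 12.4, 11.9 and 12.8 CPM, also below the lowest control. Lpar6 is a single exon inside the retinoblastoma gene Rb1, which is transcribed from the opposite strand, and 408 of its 5400 exon bases (7.56%) are also annotated as Rb1 exon. The libraries did not keep strand, so reads in those bases cannot be assigned to either gene. The other Lpar6 bases also lie within the span of Rb1, so reads from unspliced Rb1 RNA there could count as Lpar6. That share was not tested. Rb1 itself did not pass the test in either model (log2 fold change 0.47 and 0.13, edgeR adjusted p = 0.319 and 0.811), but its exon counts do not measure unspliced RNA.

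Lpar1 (ENSMUSG00000038668, chr4:58435255-58553898, minus strand), the widely expressed founder of the family, was near the same level throughout. Control cultures ran from 24.4 to 27.6 CPM, vehicle MYO5BΔIEC cultures from 20.8 to 31.6 CPM, treated ones from 21.5 to 27.2 CPM and MYO5B(G519R) cultures from 19.6 to 24.9 CPM. The log2 fold change against control was -0.07 in MYO5BΔIEC (95% interval -0.42 to 0.28) and -0.23 in MYO5B(G519R) (95% interval -0.49 to 0.03), and neither was called (edgeR adjusted p = 0.793 and 0.176).

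Lpar3 (ENSMUSG00000036832, chr3:146220963-146286186, plus strand), the remaining Edg-family receptor, was rare. The 4 controls gave 8, 0, 3 and 0 counts and the vehicle MYO5BΔIEC cultures 40, 31, 35 and 3 counts. Treated MYO5BΔIEC cultures gave 34, 5, 12 and 2 counts and MYO5B(G519R) cultures 26, 16, 12 and 1 counts. Culture 4 of each of these 3 groups, and treated culture 2, fell within the control range in CPM. The log2 fold change in MYO5BΔIEC was 3.22 (SE 1.00, edgeR adjusted p = 0.0359), and Lpar3 entered this test only through the MYO5BΔIEC cultures, since no control reached 10 counts. The call was kept in 2 of the 8 fits that each left out a culture, with adjusted p up to 0.0859. Without control culture 1, which holds 8 of the 11 control counts, the log2 fold change was 4.53 (edgeR adjusted p = 0.00757). In MYO5B(G519R) the log2 fold change of 2.12 (SE 1.06) was not called (edgeR adjusted p = 0.168), and it was called without control culture 1 (log2 fold change 3.47, edgeR adjusted p = 0.0348).

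**Figure D2:**
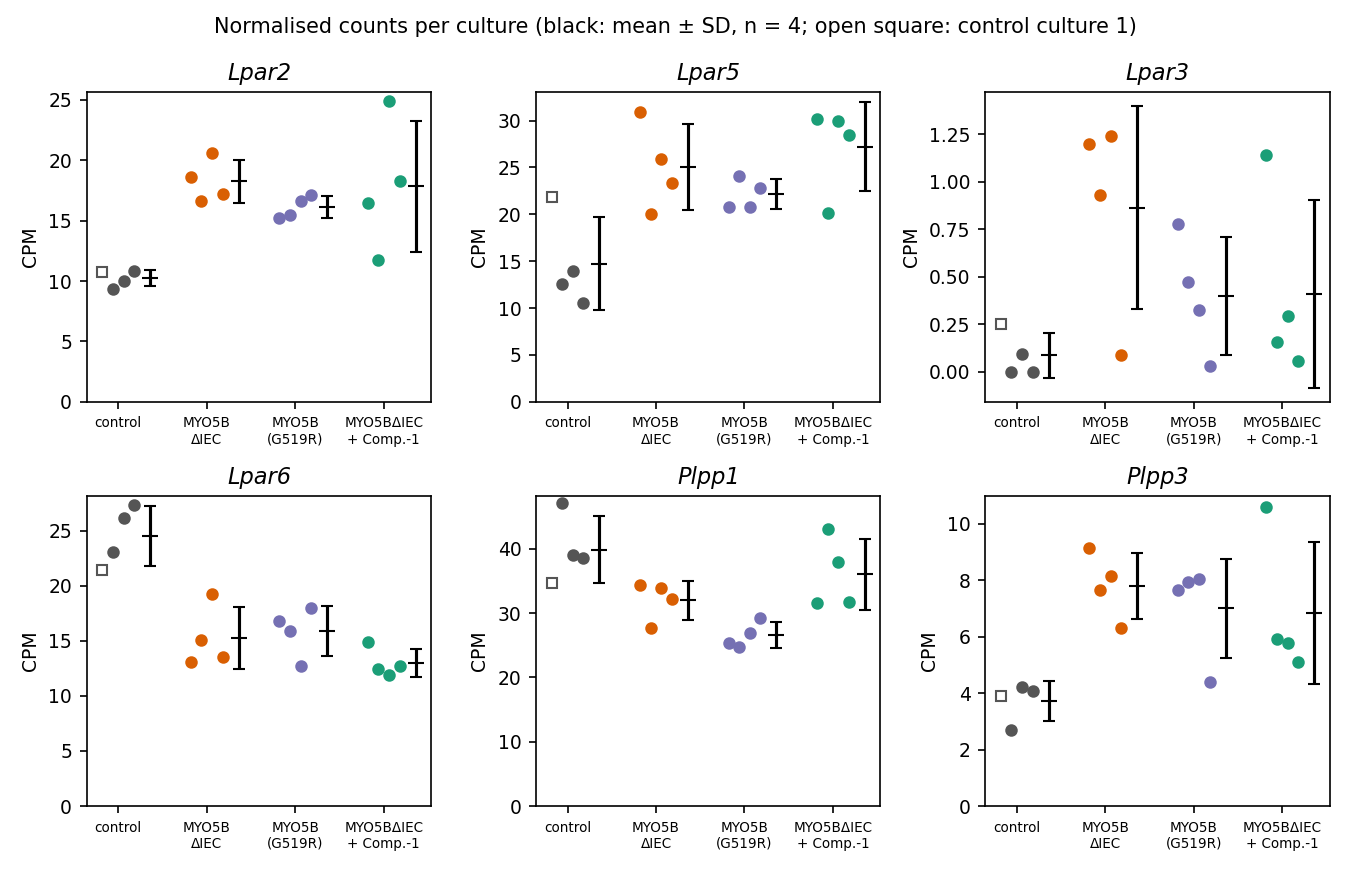
CPM in each culture for the 6 genes called in at least 1 comparison, with the mean ± SD (n = 4) beside each group and control culture 1 as an open square. Lpar2 and Plpp3 lie above and Lpar6 below every control in the other groups, and for Lpar5 control culture 1 (21.8 CPM) alone reaches the other groups.

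The phosphatases did not move together. Plpp3 (ENSMUSG00000028517, chr4:105157347-105232764, plus strand) was the rarest of the 3 and rose. Its level was 3.89, 2.69, 4.23 and 4.08 CPM in the controls. It was 9.13, 7.67, 8.14 and 6.30 CPM in the MYO5BΔIEC cultures and 7.67, 7.93, 8.05 and 4.40 CPM in the MYO5B(G519R) cultures. The ranges did not overlap, although MYO5B(G519R) culture 4 was close to the controls. This was a log2 fold change of 1.08 for MYO5BΔIEC (SE 0.22, edgeR adjusted p = 0.00564) and 0.91 for MYO5B(G519R) (SE 0.24, adjusted p = 0.0210). The former call was kept with each culture left out, and the latter in 4 of 8 such fits, being lost without control culture 2 or without MYO5B(G519R) culture 1, 2 or 3 (adjusted p up to 0.0638).

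Plpp1 (ENSMUSG00000021759, chr13:112800792-112867894, plus strand) fell in MYO5B(G519R). Control cultures held 34.6, 47.0, 39.1 and 38.5 CPM and MYO5B(G519R) cultures 25.4, 24.8, 26.9 and 29.2 CPM, with no overlap. The difference was -0.58 on the log2 scale (SE 0.12, edgeR adjusted p = 0.00840). MYO5BΔIEC cultures, at 34.3, 27.6, 33.9 and 32.2 CPM, also lay below the lowest control, by a narrow margin, and the log2 fold change of -0.31 (SE 0.14) was not called (edgeR adjusted p = 0.125) unless control culture 1 was left out (log2 fold change -0.37, edgeR adjusted p = 0.0374). The difference between the models was itself tested, at -0.27 on the log2 scale (SE 0.11), and did not pass (edgeR adjusted p = 0.838). The 3′ part of Plpp1 overlaps the RNA helicase gene Mtrex on the opposite strand in 452 of 1750 exon bases (25.8%). Mtrex was lower than control in both models (log2 fold change -0.48 and -0.41, edgeR adjusted p = 0.0171 and 0.0133), and the share of Plpp1 counts that this overlap could touch was not tested.

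Plpp2 (ENSMUSG00000052151, chr10:79526430-79533796, minus strand), the most abundant member, ran from 127 to 166 CPM in control cultures, 147 to 184 CPM in vehicle MYO5BΔIEC cultures and 151 to 198 CPM in MYO5B(G519R) cultures. Each model differed from control by a log2 fold change of 0.14 (95% interval -0.17 to 0.45 in MYO5BΔIEC and -0.15 to 0.43 in MYO5B(G519R)), and neither was called (edgeR adjusted p = 0.486 and 0.451). Plpp2 made up 79.1% ± 1.94 (SD, n = 4) of the summed phosphatase FPKM in control cultures, 82.7% ± 1.86 in the MYO5BΔIEC group and 85.1% ± 1.24 in the MYO5B(G519R) group.

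In counts, 5 of the 8 tested genes were called in MYO5BΔIEC against control, 4 higher (Lpar2, Lpar3, Lpar5 and Plpp3) and 1 lower (Lpar6), where 27.4% of all 17951 genes tested were called. In MYO5B(G519R) against control it was 4 of 8, 2 higher (Lpar2 and Plpp3) and 2 lower (Lpar6 and Plpp1), where 26.8% of 17829 genes were called. The median log2 fold change over the 8 was 0.46 and 0.36, against -0.01 and -0.05 over all genes tested. Without control culture 1 each of the 2 comparisons gave 6 called genes, while the share called over all genes also rose, to 42.0% and 46.2%. Lpar3 passed the count filter only through the groups where it was high, so these counts and medians describe the tested genes and are not a test of the family. The 2 comparisons share the 4 control cultures, so the values in the models are set side by side and are not independent of each other. MYO5B(G519R) against MYO5BΔIEC gave no call among the 8 genes by edgeR or DESeq2, where 0.00557% of 17943 genes, which is 1 gene, was called by edgeR and 4 by DESeq2, and 772 genes had an unadjusted p under 0.05. Of the 8, Plpp1 alone was among these, with a 95% interval of -0.51 to -0.02. The calls of Lpar2, Lpar5 and Lpar6 in MYO5BΔIEC differ from the study's own reading. It describes these transcripts as similar in level in control, vehicle and treated MYO5BΔIEC enteroids. In epithelial cells from MYO5BΔIEC mice, by quantitative PCR, it reports every detected receptor as lower than control, with LPAR5 still prominent. For the enteroids it names only Lpar2, Lpar5 and Lpar6 as detected in all samples, whereas Lpar1 had counts in all 16 cultures here. With 1 culture left out, the Lpar5 call in MYO5BΔIEC held in 3 of 8 fits, and those of Lpar2 and Lpar6 in all 8.

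**Figure D3:**
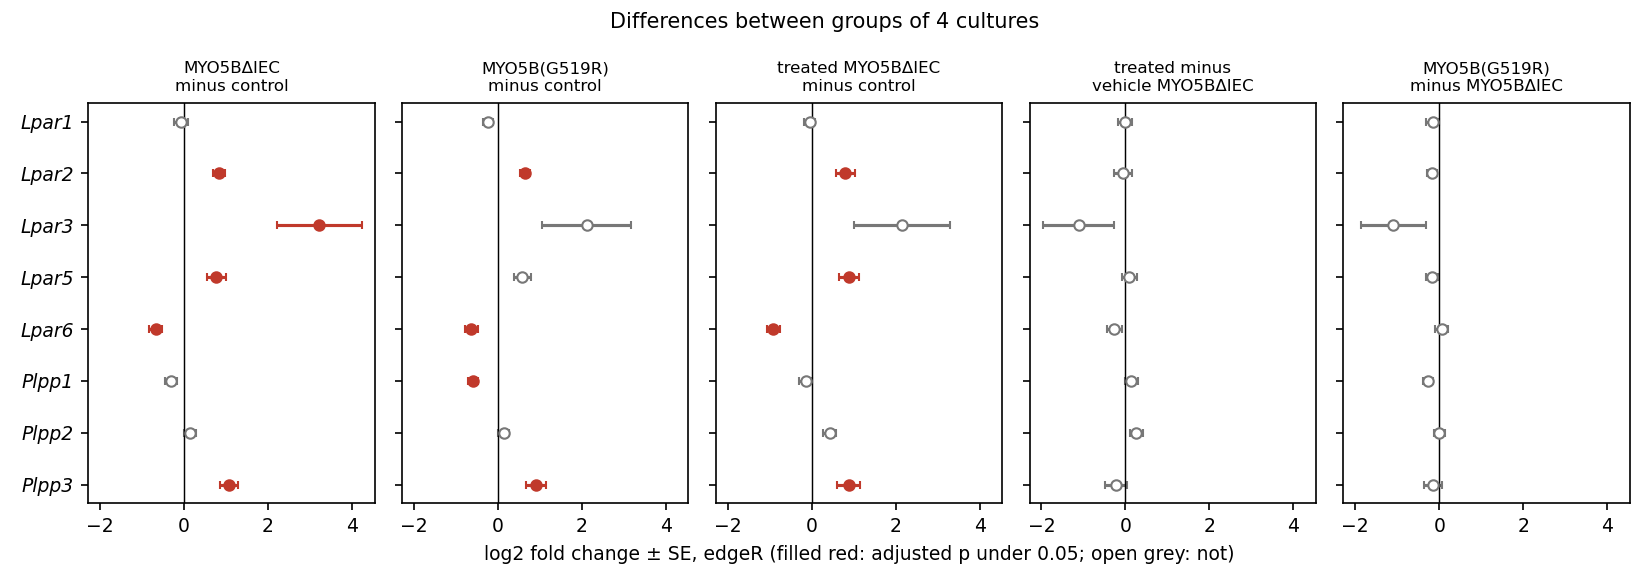
Log2 fold change ± SE from edgeR for the 8 tested genes in the 5 comparisons, each with 4 cultures against 4, filled red where the adjusted p was under 0.05. Lpar2 and Plpp3 are positive and Lpar6 negative in the 3 comparisons with control, and no gene is filled in the comparisons among the MYO5B-deficient groups.

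These changes altered the make-up of the receptor transcripts. Lpar5 held 55.2%, 41.3%, 41.4% and 35.6% of the summed receptor FPKM in control cultures 1 to 4. In vehicle MYO5BΔIEC cultures it held 64.9%, 53.4%, 53.3% and 59.8%, in treated ones 64.3%, 56.5%, 61.3% and 61.3%, and in MYO5B(G519R) cultures 56.4%, 59.7%, 55.2% and 56.9%. The Lpar6 share was 15.2% to 25.9% in control cultures, against 7.71% to 11.2% in vehicle and 6.82% to 9.77% in treated MYO5BΔIEC cultures and 9.47% to 12.8% in MYO5B(G519R) cultures, with no overlap with control. The ratio of Lpar5 to Lpar6 FPKM averaged 2.22 in control cultures (range 1.38 to 3.63). It averaged 6.02 in vehicle MYO5BΔIEC (range 4.75 to 8.41), 7.49 in treated MYO5BΔIEC (5.78 to 8.98) and 5.04 in MYO5B(G519R) cultures (4.41 to 5.83). Lpar1 fell as a share, from 27.4% ± 3.50 (SD, n = 4) in control to 19.97% ± 3.36 in MYO5BΔIEC, without a called change in its own level. The summed receptor FPKM averaged 21.5 in control, 28.4 in vehicle and 29.0 in treated MYO5BΔIEC cultures, and 25.4 in MYO5B(G519R) cultures. The shares follow from the levels above and were not tested.

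**Figure D4:**
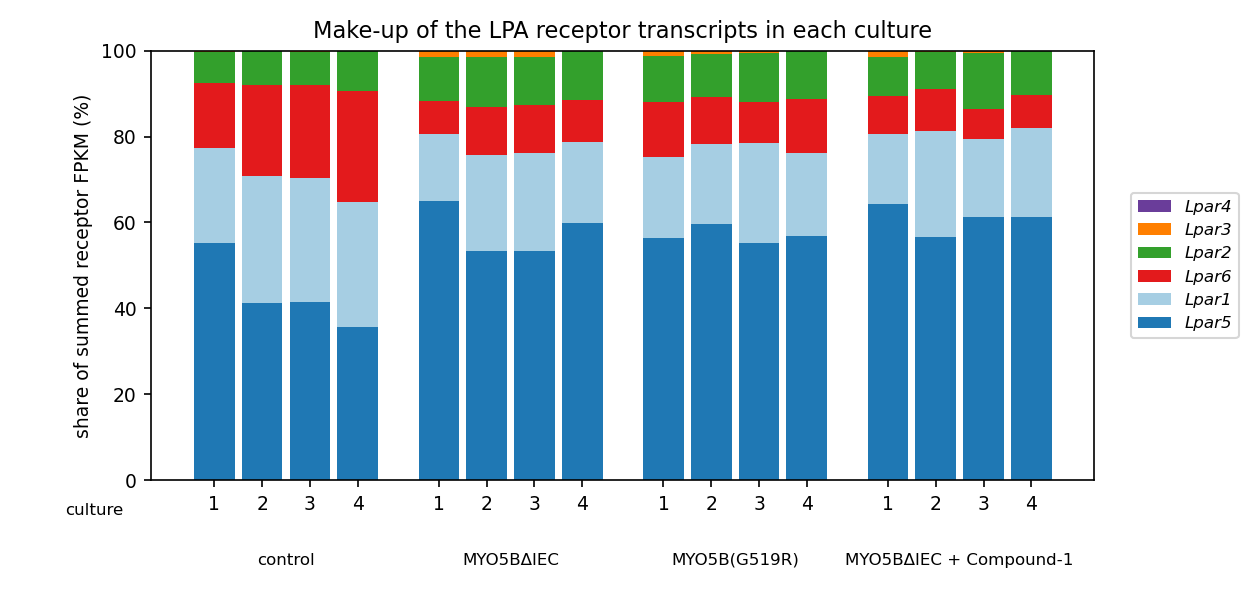
Share of the summed FPKM of the 6 LPA receptors held by each receptor in each culture (stacked to 100%), by group. Lpar5 (35.6% to 55.2% in control) is the largest part in every culture, and the Lpar6 part is 15.2% or more in the controls and 12.8% or less in the other 12 cultures.

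The treated cultures address whether the agonist changed transcripts of its own receptor family. Compound-1-treated MYO5BΔIEC enteroids were not separable from vehicle MYO5BΔIEC enteroids for any of the 8 tested genes: edgeR called 0 of them, DESeq2 called 0, and 0 had an unadjusted p under 0.05. The background of that comparison was 0% of 18037 genes, with 1355 genes at an unadjusted p under 0.05 and 91 genes called by DESeq2, none of them among the 8. For Lpar5 itself the log2 fold change was 0.09 (SE 0.18, 95% interval -0.31 to 0.48, edgeR adjusted p = 0.975). For Lpar2 the interval was -0.53 to 0.40, for Lpar1 -0.38 to 0.36, for Lpar6 -0.65 to 0.12, for Plpp1 -0.18 to 0.47, for Plpp2 -0.07 to 0.59 and for Plpp3 -0.79 to 0.34. Lpar3 had the widest interval, -2.99 to 0.75. The upper bounds for Lpar5 and Lpar2 lie below the point estimates of these genes between MYO5BΔIEC and control (0.77 and 0.84). Those estimates have 95% intervals of their own, 0.26 to 1.28 for Lpar5 and 0.52 to 1.16 for Lpar2. Both comparisons share the vehicle cultures, and whether the differences are unequal in size was not tested. Changes within the intervals of treated against vehicle were not detectable with 4 cultures a group.

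Against control, treated cultures gave 4 calls of 8, Lpar2, Lpar5 and Plpp3 higher and Lpar6 lower, where 29.4% of 17937 genes were called. Ranges without overlap with control were seen for 27.9% of the 17937 genes. On the log2 scale Lpar2 differed by 0.80 (SE 0.22, edgeR adjusted p = 0.0223), Lpar5 by 0.88 (SE 0.24, adjusted p = 0.0203) and Lpar6 by -0.92 (SE 0.15, adjusted p = 0.00458). Plpp3, at 10.6, 5.92, 5.79 and 5.11 CPM in treated cultures, gave 0.88 (SE 0.28, edgeR adjusted p = 0.0398) with no overlap with control, and its call held in 2 of 8 fits that left out a culture. The calls of Lpar2 and Lpar5 each held in 3 of 8 such fits and that of Lpar6 in all 8. Plpp2 was at 158, 200.3, 236 and 215 CPM, and its log2 fold change of 0.43 (SE 0.16) against control missed the threshold (edgeR adjusted p = 0.0701).

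Genes around the receptors were read from 5 lists, chosen with earlier results of these data known. The shares called describe the tested genes and are not a test of a list. Of 17 signalling genes downstream of LPA receptors, all tested, edgeR called 7 higher and none lower for MYO5BΔIEC against control, 6 higher and none lower for MYO5B(G519R), and 8 higher and 1 lower for the treated cultures. DESeq2 called 7 higher and none lower for MYO5BΔIEC and 6 higher and 1 lower for MYO5B(G519R), and at an unadjusted p under 0.05 in edgeR it was 8 and 0, and 7 and 2. The shares called by edgeR, 41.2% and 35.3% of the 17, stand against 27.4% and 26.8% of all genes tested. Over all genes DESeq2 called 33.2% and 32.4%, and 40.4% and 39.4% had an unadjusted p under 0.05. In the treated cultures edgeR called 52.9% of the 17, against 29.4% of all genes tested. Of the called genes in MYO5BΔIEC, the largest were Gnai2 (log2 fold change 0.78, SE 0.13), Arhgef11 (0.71, SE 0.23) and Arhgef1 (0.70, SE 0.13). In MYO5B(G519R) the largest called were Arhgef1 (0.79, SE 0.12), Arhgef12 (0.69, SE 0.14) and Gnai2 (0.68, SE 0.11). Gnai2 encodes a Gi alpha subunit. Plcb2, the 1 lower in treated cultures and named after its value was seen, was rare, with a mean of 1.42 CPM in control. It had the largest change of the 17 in treated cultures (-2.20, SE 0.67, edgeR adjusted p = 0.0327). Its change was also the largest, but not called, in MYO5BΔIEC (-1.09, SE 0.50) and MYO5B(G519R) (-1.18, SE 0.50). The median log2 fold change over the 17 was 0.41 for MYO5BΔIEC and 0.27 for MYO5B(G519R).

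Of 20 genes of LPA and phosphatidic acid metabolism, 19 were tested. In MYO5BΔIEC 3 were higher and 1 lower. The acyltransferases that turn LPA into phosphatidic acid inside the cell split: Agpat4 rose (log2 fold change 1.04, SE 0.23, edgeR adjusted p = 0.00926), as did Agpat1 (0.74, SE 0.16), while Agpat5, the 1 that was lower and named after its value was seen, fell by 0.52 (SE 0.13). Pld2, a phospholipase D that makes phosphatidic acid, rose by 1.01 (SE 0.14, edgeR adjusted p = 0.00166). MYO5B(G519R) enteroids had 3 of them higher and 3 lower, Agpat4 being at 1.05 (SE 0.21), Pld2 at 0.93 (SE 0.13) and Agpat1 at 0.74 (SE 0.15). These are 21.1% and 31.6% of the 19, against 27.4% and 26.8% of all genes tested. Treated cultures gave 4 higher and 1 lower of 18 tested against control, which is 27.8%, against 29.4% of all genes tested.

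Of 8 relatives of the phosphatases 4 were tested, with Plppr2 higher in MYO5BΔIEC (log2 fold change 0.87, SE 0.28) and Plpp5 lower in MYO5B(G519R) (-0.36, SE 0.12). In each model that was 25% of the 4, against 27.4% and 26.8% of all genes tested. In treated cultures against control 0% of the 4 were called. Of 10 relatives of the receptors, 2 or 3 were tested, and the sphingosine 1-phosphate receptor gene S1pr2 was higher in MYO5B(G519R) (0.72, SE 0.19). That was 33.3% of those tested there, against 26.8% of all genes tested. In MYO5BΔIEC 0% were called, with S1pr2 at 0.57 (SE 0.22, edgeR adjusted p = 0.0829). In treated cultures against control S1pr2 was higher (0.88, SE 0.28), which is 50% of the 2 tested, against 29.4% of all genes tested. Of 6 transport genes that LPA is known to act on in enterocytes, 2 were higher and 1 lower in MYO5BΔIEC: Slc9a3, which encodes NHE3, at 0.85 (SE 0.24), Slc9a3r1, which encodes the scaffold NHERF1, at 0.84 (SE 0.16), and the chloride-bicarbonate exchanger Slc26a3 at -0.96 (SE 0.23). MYO5B(G519R) enteroids had 1 higher and 2 lower: Slc9a3r1 at 0.66 (SE 0.16), Cftr at -0.85 (SE 0.28) and Slc26a3 at -1.26 (SE 0.22). In each model 50% of the 6 were called, against 27.4% and 26.8% of all genes tested. Treated cultures against control gave 1 higher and 1 lower of the 6, which is 33.3%, against 29.4% of all genes tested. Treated against vehicle MYO5BΔIEC cultures gave 0 calls among the 48 tested genes of the 5 lists by edgeR and 0 by DESeq2, with 3 at an unadjusted p under 0.05.

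**Figure D5:**
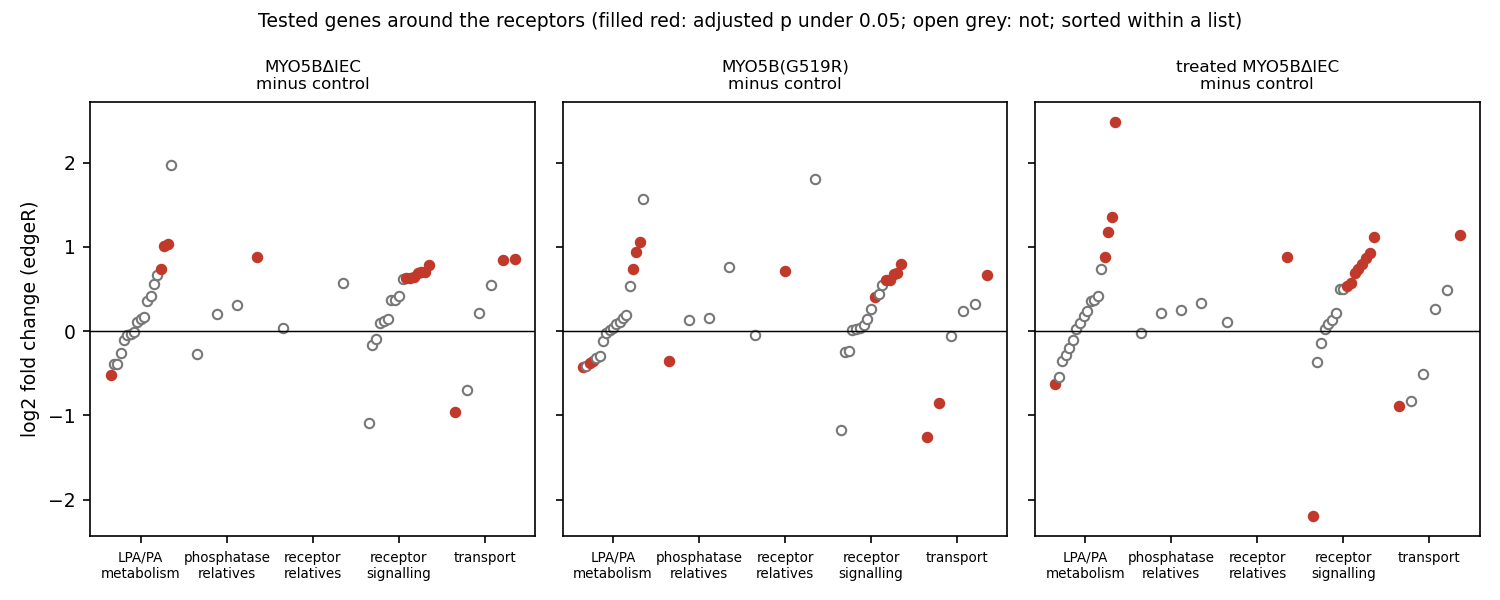
Log2 fold change from edgeR against control of each tested gene in 5 lists around the LPA receptors, for MYO5BΔIEC, MYO5B(G519R) and treated MYO5BΔIEC enteroids, filled red where the adjusted p was under 0.05. Among the signalling genes the filled points in the 2 untreated models are all positive (7 and 6), while metabolism and transport hold filled points on both sides of 0.

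Some marker lists of cell types moved with the groups as well. The 8 epithelial markers summed to 5590 to 6708 CPM in control cultures, 8208 to 8542 CPM in vehicle and 8644 to 12750 CPM in treated MYO5BΔIEC cultures, and 7263 to 8973 CPM in MYO5B(G519R) cultures, with no overlap with control. By edgeR 4 of the 8 were higher in MYO5BΔIEC, among them Vil1 (log2 fold change 1.08, SE 0.20), and 3 in MYO5B(G519R). These are 50% and 37.5%, against 27.4% and 26.8% of all genes called. The 6 goblet cell markers summed to 1335 to 1741 CPM in control cultures, 1869 to 2276 CPM in vehicle and 1906 to 5623 CPM in treated MYO5BΔIEC cultures, and 1854 to 2272 CPM in MYO5B(G519R) cultures, again with no overlap. Within that list Fcgbp and Clca1 were higher and Agr2 lower in both models, and Tff3 was also lower in MYO5B(G519R). The sum of 5 stem cell markers was 3800 to 7186 CPM in control cultures, 1764 to 2829 CPM in vehicle and 1186 to 2752 CPM in treated MYO5BΔIEC cultures, and 2021 to 3358 CPM in MYO5B(G519R) cultures. Olfm4 was the 1 stem cell marker of the 5 that was called, with log2 fold changes of -2.26 (SE 0.51) and -1.63 (SE 0.41) in the models, and the median over the 5 was -0.10 and -0.04. The single markers named here were picked after their values were seen. The 6 Paneth cell markers ranged from 3243 to 7738 CPM in control and from 3092 to 4647 over the other 3 groups, and the 10 enterocyte markers from 3375 to 17197 CPM in control and from 5972 to 13077 over the other 3. The part of these shifts, and of the mitochondrial read share, in the results above was not tested. In bulk samples, fewer cells of a type and less RNA per cell cannot be told apart.

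Across the 16 cultures, on log2(CPM + 1) values and over 13544 genes with a mean of at least 1 CPM, the genes most like Lpar5 were Zdhhc9 (r = 0.964), Gnb1 (r = 0.964) and Gak (r = 0.961). For Lpar2 they were AC125351.1 (r = 0.950), Pafah2 (r = 0.945) and Anapc2 (r = 0.944), and for Lpar6 Minos1 (r = 0.947), Nxt2 (r = 0.943) and Zfp157 (r = 0.943). Lpar1 had the lowest best match of the 7 genes, Atp6v1c1 at r = 0.828. For the phosphatases the closest were Tfg for Plpp1 (r = 0.911), Cdc42ep5 for Plpp2 (r = 0.953) and Tmem263 for Plpp3 (r = 0.925). Within the family, Lpar2 and Lpar5 had r = 0.81 and Lpar5 and Lpar6 r = -0.77. These are descriptions over 16 points that share 4 groups, and large differences between control and the other groups enter all of them.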

How the data were processed

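Polyadenylated RNA from 16 enteroid cultures was sequenced by the study on libraries that do not keep strand. The submitters' processing notes name STAR 2.5, HTSeq 0.6.1, TopHat and DESeq2 with GRCm38 (mm10). The deposited counts are whole reads per gene, not normalized, and the deposited FPKM are the authors' values per gene length and library size. Members and lists were chosen with earlier results of these data known.

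Each comparison was fitted with edgeR 4.0.16 (R 4.3.3, TMM normalisation, quasi-likelihood F test) on genes that reached 10 counts in 2 or more of its 8 libraries. P-values were adjusted by Benjamini-Hochberg over all genes tested, with a threshold of 0.05. Fold changes have SE and 95% intervals from the same fit. CPM values in the text use TMM factors over all 16 libraries. The script was tested on simulated data. Alternatives were DESeq2 1.42.0, limma 3.58.1 on log2(FPKM + 1) and log2(FPKM + 0.1), other normalisations and filters, donor sex (read from Xist and Y-linked genes), gene length, a replicate block and leaving out each culture.

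Named genes were all 10 members and, per list and model, at most the 3 called genes with the largest change. Rb1, Mtrex and Myo5b were added for exon overlap and as the targeted gene, and Agpat5, Plcb2 and single cell type markers after their values were seen. Likeness was Pearson's r over the 16 cultures, and the 3 highest genes were kept.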

Additional observations from a re-analysis of the deposited data

Results flagged for a closer look

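In 28 groups of 4 CPM values (7 genes detected in all 16 cultures, 4 groups each), 4 values lay far from the other 3 of their group, by Dixon's test at the 95% level. Chance alone would mark about 1 in 20 such groups. Lpar5 was 20.2 CPM in treated culture 2, below the 28.5 to 30.2 CPM of the other treated cultures. Plpp2 was 198 CPM in MYO5B(G519R) culture 4, above the 151 to 158 CPM of the others, and Plpp3 was 4.40 CPM in the same culture, below 7.67 to 8.05 CPM. Plpp3 was 10.6 CPM in treated culture 1, above 5.11 to 5.92 CPM in the others. Without MYO5B(G519R) culture 4 the call of Plpp3 against control held. Without treated culture 1, Plpp3 in treated cultures against control went from a log2 fold change of 0.88 to 0.59 and lost its call (edgeR adjusted p = 0.0917), and Plpp2 was called (0.53, edgeR adjusted p = 0.0321).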

How the results depend on the processing

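Of the genes called, Lpar2 and Lpar6 in both models, Plpp3 in MYO5BΔIEC, Plpp1 in MYO5B(G519R) and Lpar6 in treated cultures kept their call under every alternative and with each culture left out. Leaving out 1 culture at a time gave 3 to 6 called genes for MYO5BΔIEC against control (6 without control culture 1) and 1 to 4 for treated cultures against control. The cause of these losses was not tested. Of the 12 other settings, 5 called Lpar5 in MYO5B(G519R) (lowest adjusted p = 0.0324), 3 called Plpp2 in treated cultures and 10 called Plpp3 there. Limma on log2(FPKM + pseudocount) understates the change of rare genes such as Lpar3.

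Same-numbered cultures were not treated as pairs in the main fits. The lowest correlation of same-numbered deviations was -0.23 for both models against control. For treated against vehicle the 4 correlations were 0.05, -0.14, 0.10 and -0.16. Between MYO5B(G519R) and MYO5BΔIEC they were 0.15, 0.09, 0.53 and 0.61, and 3 of 4 cultures correlated best with their own number. What the numbers stand for was not tested. With a replicate block, 5, 4, 0, 3 and 0 genes were called in the comparisons MYO5BΔIEC, MYO5B(G519R), treated against vehicle, treated against control and between models. The block took all calls from 4910 to 3647 genes for MYO5BΔIEC and from 4778 to 3691 for MYO5B(G519R).

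Without control culture 1 all calls rose to 7474 and 8146 genes. DESeq2 called 91 genes for treatment against 0 by edgeR and 12 without a count filter. Several differences that were not called changed sign around 0. Lpar1 for treated against vehicle was 0.0246 with all 4 groups in 1 fit, 0.0080 with the replicate block, 0.0836 with sex, and 0.0194 and 0.0242 by limma with pseudocounts 1 and 0.1. Plpp1 for treated against control was 0.0461 with the length trend removed. Plpp2 between models was -0.0347 with sex and -0.0162 with the length trend removed. Leaving out cultures gave ranges across 0 for Lpar1 in MYO5BΔIEC (-0.2194 to 0.0055), in treated against control (-0.0943 to 0.0127), in treated against vehicle (-0.0817 to 0.1408) and between models (-0.2228 to 0.0031). The same held in treated against vehicle for Lpar2 (-0.2642 to 0.0904) and Lpar5 (-0.0016 to 0.2038), and between models for Lpar6 (-0.0068 to 0.1985), Plpp2 (-0.0885 to 0.0582) and Plpp3 (-0.2451 to 0.0148).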
